A study of Homo sapiens with 27 samples.

Results

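The genes described here are 37 genes of the NRF2 antioxidant and detoxification programme, chosen by symbol and matched to 37 rows of the table, 37 of 36536 genes once rows sharing a symbol were summed. The list was drawn up with earlier results of these data in view, in which GPX2 and UGT1A7 stood out for the size of their changes; for these 2 genes the values are a description with no test. The measurement was RNA-seq of MCF10A, an established non-tumorigenic line of human mammary epithelial cells, so every library came from 1 cell line. Before treatment the cells had been growing with epidermal growth factor (EGF) at 20 ng/ml and were then starved of growth factors for 18 h, a history that all groups share, and the treatment lasted 24 h. The 9 groups held 3 libraries each, 27 in all: cells collected at 0 h (T0), a control given phosphate-buffered saline (PBS), and cells given 10 ng/ml of EGF, of oncostatin M (OSM, a relative of interleukin-6 that signals through gp130) or of transforming growth factor beta (TGFB), alone, as EGF+OSM, EGF+TGFB and OSM+TGFB, and all together as EGF+OSM+TGFB.

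NRF2, encoded by NFE2L2, is a transcription factor of the cap'n'collar family. In unstressed cells the adaptor KEAP1 holds it for ubiquitination and destruction; electrophiles and oxidants modify cysteines of KEAP1, NRF2 then accumulates, pairs with a small MAF protein and binds the antioxidant response element in the promoters of its targets. Those targets make and recycle glutathione and thioredoxin, supply NADPH, store iron and degrade heme, reduce aldehydes and quinones, and conjugate and export foreign compounds. NRF2 is mostly regulated as a protein, which RNA-seq does not measure, and many of its targets are also controlled by other factors.

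The core of the antioxidant response element, searched here as TGACNNNGC on both strands, was looked for from 250 bases before to 50 bases after the gene starts in RefSeq's promoter table (GRCh38.p14), which matched 29 of the 37 genes. It was present in 13 of their 41 promoters (31.7%), in 12 genes, and in 13.3% of all 35116 promoters of the table. The motif bound by AP-1 factors, TGANTCA, was present in 3 of 41 promoters (7.32%) and in 7.71% of all promoters, and the letters TGACTCAGC match both motifs. A match is a description of the letters and not evidence of binding. The stretches below show the matches in capitals, on the gene's strand from 5′ to 3′, for promoters of genes that differed in direction in these cells: GCLM was higher with EGF, ME1 was higher with EGF+TGFB, and the other 5 were lower with EGF. For ME1, TXNRD1 and KEAP1, which have more matches, 1 is shown. KEAP1, EPHX1 and UGT1A6 also have promoters in the table that hold no match.
GCLM, chr1:93909436-93909484, minus strand: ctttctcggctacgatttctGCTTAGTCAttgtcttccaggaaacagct
ME1, chr6:83431160-83431208, minus strand: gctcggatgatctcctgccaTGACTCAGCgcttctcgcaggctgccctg
GPX2, chr14:64942839-64942887, minus strand: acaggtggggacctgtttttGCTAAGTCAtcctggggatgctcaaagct
TXNRD1, chr12:104215660-104215708, plus strand: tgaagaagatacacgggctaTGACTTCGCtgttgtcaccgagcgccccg
EPHX1, chr1:225825256-225825304, plus strand: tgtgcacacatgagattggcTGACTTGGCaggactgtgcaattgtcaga
UGT1A6, chr2:233692772-233692820, plus strand: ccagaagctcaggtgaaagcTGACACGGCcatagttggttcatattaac
KEAP1, chr19:10502797-10502845, minus strand: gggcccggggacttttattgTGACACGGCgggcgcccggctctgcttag
GCLM and GPX2 differ in 1 of the 9 letters of the match (T4A, counted from 1 at the match's first base, GCLM's base first). GCLM was higher and GPX2 lower with EGF. The KEAP1 match that is not shown has the same 9 letters as that of GCLM, and KEAP1 was lower with EGF. Whether these letters bear on the direction was not tested. Of the 7 matches shown, that of ME1 also holds the AP-1 motif. The match of GSTP1, which is not shown, has the same 9 letters as that of ME1, and GSTP1 was lower with EGF, OSM and TGFB. A link to direction was not tested here either.

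Libraries held 30.1 to 52.9 M estimated counts (median 39.5 M), and levels are given as CPM, counts per 1000000 of the TMM-normalised library size. Fold changes are log2 differences with their standard errors (after the ± sign) from edgeR's quasi-likelihood fit of all 15575 genes that passed its low-count filter, which all 37 genes did, and a gene was called where the Benjamini-Hochberg adjusted p over all those genes was under 0.05. The labels do not say whether the 3 libraries of a group came from separate cultures, so p-values measure the spread between these libraries only. The mammary keratin genes KRT5 and KRT14 had group means of 3414 to 8883 and 661 to 2717 CPM. The other epithelial markers KRT17, KRT18, CDH1, ITGB4 and TP63 had group means of 86.4 CPM or higher, while EPCAM was lower, at 3.27 to 16.3 CPM. Markers of leukocytes (PTPRC, CD3E), endothelium (CDH5), blood (HBB) and liver (ALB) were at 0.133 CPM or lower in every group. CD68, found in lysosomes of many cell types, was at 21.9 to 46.9 CPM, and ESR1, PECAM1 and VWF were at 2.76 CPM or lower. The 6 proliferation genes read beside them (MKI67, TOP2A, CCNB1, CDK1, PCNA and MCM2) moved too. Their median log2 fold change against PBS was 3.84 with EGF, 3.31 with OSM and -0.43 with TGFB, where only TOP2A was called. From T0 to PBS the median was -2.29. The part of these genes in the changes below was not tested. In bulk RNA, fewer cells expressing a gene and less RNA of it per cell cannot be told apart.

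Against PBS, EGF lowered 26 and raised 6 of the 37 genes, against 38.6% and 34.9% of all tested genes. OSM lowered 28 (29.8% of all genes) and raised 5 (33.5%), and TGFB lowered 22 (15.8%) and raised 3 (19.9%). The median log2 difference of the 37 genes was -0.94 with EGF, -0.53 with OSM and -0.33 with TGFB, where the medians of all tested genes were -0.07, 0.002 and -0.01. Each ligand thus had a larger share of lower calls, and a smaller share of higher calls, among these genes than in the whole table. The counts here and below include GPX2 and UGT1A7, which were lower with each ligand and had stood out in earlier results. As the list was drawn up with those results in view, the comparison is a description and not a test of the set.

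**Figure D1:**
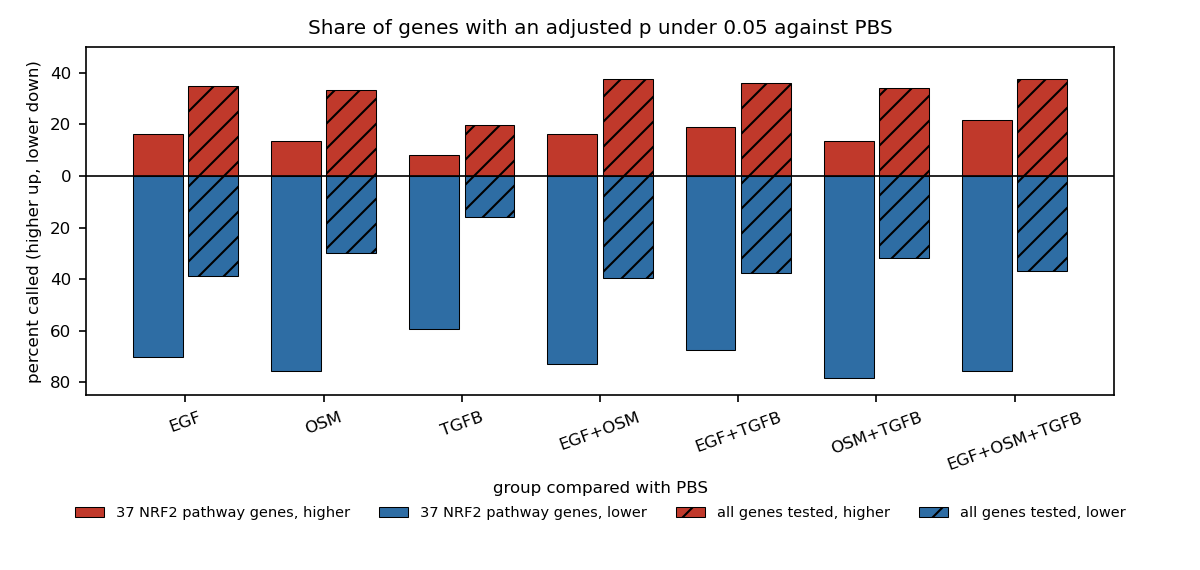
Percent of genes called higher (upward bars) and lower (downward bars) than PBS by edgeR at an adjusted p under 0.05, by ligand group, for the 37 NRF2 pathway genes and for all 15575 genes tested (hatched). The share called lower is larger among the 37 genes, GPX2 and UGT1A7 included, than among all genes for each ligand and combination against PBS.

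With the combinations the number called lower was 27 for EGF+OSM (39.6% of all genes), 25 for EGF+TGFB (37.5%), 29 for OSM+TGFB (31.8%) and, with all 3 as EGF+OSM+TGFB, 28 (36.7%). The numbers called higher were 6 (37.6%), 7 (36.2%), 5 (34.2%) and 8 (37.7%) in the same order. The groups share their PBS libraries, so the comparisons are not independent. The median log2 difference from PBS was -1.12, -1.22, -0.798 and -1.44, against -0.05 to 0.001 for all tested genes. The median range of the group means over all 9 groups was 1.93 log2 units for the 37 genes and 1.197 for all tested genes. The highest group mean was in T0 for 15 of the 37 genes and in PBS for 9, while the lowest was in EGF+OSM+TGFB for 14, in OSM+TGFB for 8 and in EGF+OSM for 6. The groups with the highest and lowest means were not counted over all tested genes.

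**Figure D2:**
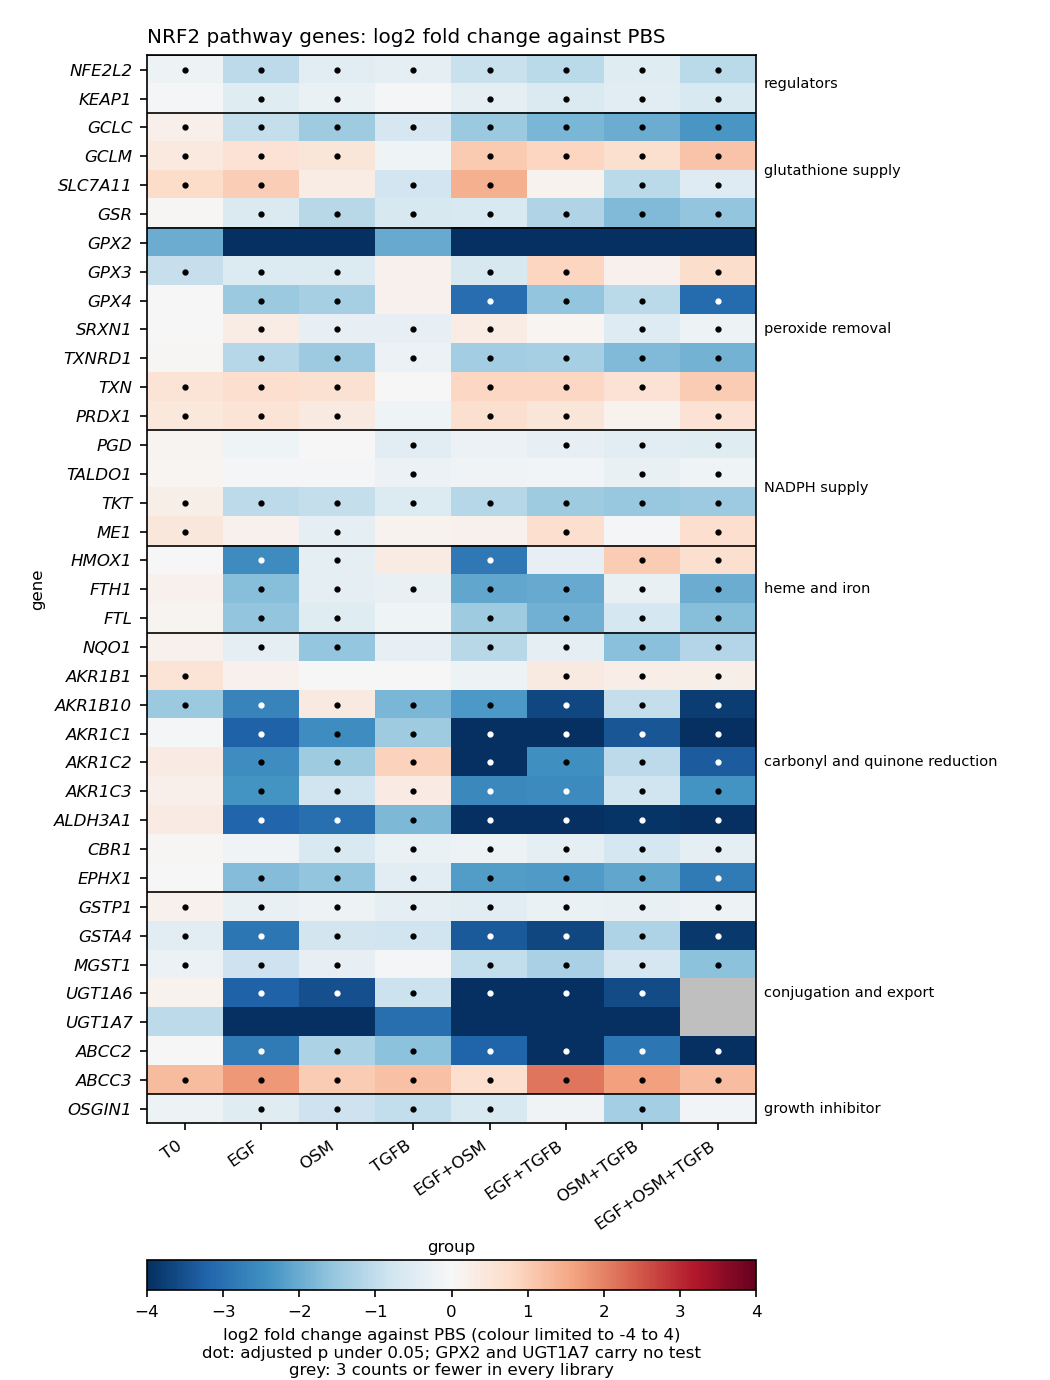
Log2 fold change of each of the 37 genes against PBS (columns: T0 and the 7 ligand groups; rows: genes ordered by role), from edgeR; blue is lower and red higher than PBS, dots mark calls at an adjusted p under 0.05 (GPX2 and UGT1A7 carry no test), and grey marks groups with 3 counts or fewer in every library. Most rows are blue in the columns with EGF or OSM, and GCLM, TXN, PRDX1 and ABCC3 are red in EGF and in OSM.

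By single ligand, 16 genes were lower with each of EGF, OSM and TGFB (7.24% of all genes), 14 of them besides GPX2 and UGT1A7. A further 7 fell with EGF and OSM without a call for TGFB (KEAP1, GPX3, GPX4, HMOX1, FTL, NQO1 and MGST1), against 14.6% of all genes. GCLM, TXN and PRDX1 rose with EGF and with OSM and were not called for TGFB (14.1% of all genes), and ABCC3 rose with each ligand. AKR1C2 and AKR1C3 fell with EGF and OSM and rose with TGFB. SRXN1 rose with EGF and fell with the others, SLC7A11 rose with EGF and fell with TGFB, and AKR1B10 fell with EGF and TGFB. CBR1 and ME1 fell with OSM, and CBR1, PGD and TALDO1 with TGFB, with no call for EGF. AKR1B1 was called for none of the 3 ligands alone.

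Both regulators fell with EGF and with OSM. NFE2L2 (chr2:177218667-177392756, minus strand) was at 192, 202 and 191 CPM in the T0 libraries and at 221, 231 and 219 with PBS. It was at 103, 109 and 112 with EGF, 168, 179.5 and 157 with OSM and 169, 172 and 173 with TGFB. Every library of the 3 ligands was below every PBS library, and the EGF libraries were below those of OSM and TGFB. With EGF+OSM it was at 114, 119 and 126 CPM, with EGF+TGFB at 107, 106 and 105, with OSM+TGFB at 155, 165 and 157 and with EGF+OSM+TGFB at 108, 106 and 106, so the groups with EGF did not overlap those without it. The log2 difference from PBS was -1.05 ± 0.05 for EGF (adjusted p 7.2e-16), -0.41 ± 0.05 for OSM (2.5e-08) and -0.38 ± 0.05 for TGFB (3.0e-07), and OSM against EGF was 0.64 ± 0.05. Of the 31-base words in its annotated transcripts, 53.98% occur in no other gene and 25.1% also in HNRNPA3. KEAP1 (chr19:10486125-10503558, minus strand), the adaptor that marks NRF2 for destruction, was at 88.8, 88.5 and 91.8 CPM at T0, 90.6, 92.8 and 96.6 with PBS, 63.4, 69.1 and 68.2 with EGF, 79.5, 79.8 and 72.5 with OSM and 86.7, 90.2 and 91.4 with TGFB. The pairs were at 71.98, 70.1 and 73.04 for EGF+OSM, 58.7, 64.7 and 66.3 for EGF+TGFB and 69.5, 69.6 and 67.7 for OSM+TGFB, and the 3 ligands together at 58.3, 59.7 and 64.3. Its log2 difference from PBS was -0.48 ± 0.05 for EGF (3.6e-09) and -0.27 ± 0.05 for OSM; TGFB gave -0.06 ± 0.05 (adjusted p 0.37), which was not called.

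Among the genes that supply glutathione, the subunits of glutamate-cysteine ligase, which makes the first bond of glutathione, moved in opposite directions with EGF and OSM. GCLC (chr6:53497341-53616970, minus strand), the catalytic subunit, was at 117, 121 and 136 CPM at T0, 108, 105 and 113 with PBS, 53.5, 57.7 and 58.3 with EGF, 37.9, 43.9 and 40.2 with OSM and 65.7, 67.9 and 71.6 with TGFB. It was at 36.02, 38.5 and 41.1 with EGF+OSM, 28.95, 29.4 and 33.9 with EGF+TGFB, 25.8, 28.9 and 27.01 with OSM+TGFB and 23.3, 19.96 and 21.8 with EGF+OSM+TGFB, the lowest of the 9 groups. The log2 difference from PBS was -0.94 ± 0.07 for EGF, -1.41 ± 0.07 for OSM, -0.67 ± 0.07 for TGFB and -2.32 ± 0.08 for the 3 together (adjusted p 2.4e-19). GCLM (chr1:93885199-93909456, minus strand), the modifier subunit, was at 28.5, 26.8 and 32.7 CPM at T0 and 23.01, 21.3 and 23.1 with PBS, against 30.8, 33.3 and 36.6 with EGF, 27.8, 29.1 and 37.1 with OSM and 18.03, 19.4 and 21.9 with TGFB. With EGF+OSM it reached 42.1, 45.9 and 52.2, with EGF+TGFB 39.5, 39.1 and 42.6, with OSM+TGFB 32.9, 35.1 and 37.7 and with EGF+OSM+TGFB 50.3, 46.1 and 50.8. GCLM rose with EGF, by 0.58 ± 0.1004 on the log2 scale (1.4e-05), and with OSM, by 0.48 ± 0.101 (0.0002), while TGFB gave -0.18 ± 0.103 (adjusted p 0.18, not called). The log2 ratio of GCLM to GCLC, of which only the change between groups can be read since CPM are not per length, went from -2.27 ± 0.04 (SD, n = 3) with PBS to -0.76 ± 0.07 with EGF, -0.39 ± 0.25 with OSM, -1.79 ± 0.08 with TGFB, 0.27 ± 0.06 with EGF+OSM and 1.18 ± 0.06 with all 3.

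SLC7A11 (chr4:138164097-138242349, minus strand), which imports cystine for glutathione, was at 21.5, 18.5 and 25.5 CPM at T0, 13.6, 10.9 and 14.5 with PBS, 21.8, 23.8 and 31.6 with EGF, 13.7, 12.4 and 21.5 with OSM and 6.86, 6.795 and 9.31 with TGFB. It was at 29.3, 31.4 and 42.6 with EGF+OSM, 13.7, 12.5 and 17.5 with EGF+TGFB, 5.64, 5.77 and 6.97 with OSM+TGFB and 7.83, 9.37 and 10.1 with EGF+OSM+TGFB. The EGF and EGF+OSM libraries were all above those of PBS, and the TGFB libraries all below; the OSM libraries overlapped the PBS ones. The log2 difference from PBS was 0.98 ± 0.21 for EGF (0.0002) and -0.77 ± 0.22 for TGFB (0.0091), and adding TGFB lowered it in each background, with log2 differences of -0.83 ± 0.21 over EGF, -1.37 ± 0.23 over OSM and -1.93 ± 0.22 over the pair. GSR, glutathione reductase, which returns oxidised glutathione to its reduced form, fell with each ligand (-0.59 ± 0.08 with EGF, -1.11 ± 0.09 with OSM and -0.64 ± 0.08 with TGFB).

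Of the 7 genes that remove peroxides, the glutathione peroxidases were lower with EGF and OSM, while TXN and PRDX1 were higher. GPX2 (chr14:64939152-64942746, minus strand), an epithelial glutathione peroxidase, was at 16.3, 20.6 and 20.5 CPM at T0 and 67.7, 77.8 and 79.5 with PBS, against 2.25, 1.96 and 1.56 with EGF, 1.51, 1.997 and 1.38 with OSM and 16.5, 18.5 and 20.2 with TGFB. The pairs were at 0.379, 0.303 and 0.506 for EGF+OSM, 0.522, 0.648 and 0.548 for EGF+TGFB and 0.5898, 0.919 and 0.581 for OSM+TGFB, and EGF+OSM+TGFB at 0.416, 0.488 and 0.251. Every library with EGF or OSM was below every library of TGFB alone, and those were below every PBS library and within the range at T0. The fitted log2 difference from PBS was -5.28 with EGF, -5.51 with OSM and -2.03 with TGFB. GPX4, which reduces lipid hydroperoxides and restrains ferroptosis, was at 282, 283 and 286 CPM at T0, 259.6, 289 and 292 with PBS, 95.2, 106 and 96.4 with EGF, 117, 128 and 89.5 with OSM and 310, 313 and 320.1 with TGFB. It was at 33.9, 33.9 and 32.99 with EGF+OSM, 89.5, 101 and 89.9 with EGF+TGFB, 136, 145 and 116 with OSM+TGFB and 31.3, 37.3 and 30.3 with EGF+OSM+TGFB. The EGF+OSM libraries were below those of each ligand alone, and the log2 difference from PBS was -1.495 ± 0.096 for EGF, -1.33 ± 0.096 for OSM and -3.06 ± 0.104 for both (9.7e-18); with TGFB it was 0.17 ± 0.09 (adjusted p 0.18, not called). Its departure from the sum of EGF and OSM was -0.23 ± 0.14 (0.19), not called. GPX3, a secreted peroxidase, was at 3.18, 3.06 and 3.01 CPM with PBS and fell to 1.803, 2.53 and 1.93 with EGF and 2.08, 2.35 and 1.94 with OSM. With EGF+TGFB it was at 5.25, 5.73 and 5.72. It was at 1.405, 1.79 and 1.73 at T0, 3.55, 3.63 and 3.25 with TGFB and 2.36, 2.19 and 1.37 with EGF+OSM. With OSM+TGFB it was at 3.57, 3.30 and 3.48, and with EGF+OSM+TGFB at 4.89, 5.64 and 4.67.

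TXN, thioredoxin, rose by 0.66 ± 0.06 with EGF and 0.62 ± 0.06 with OSM, and PRDX1, a peroxiredoxin that thioredoxin recharges, by 0.54 ± 0.08 and 0.35 ± 0.08. TXNRD1, which reduces thioredoxin with NADPH, went the other way, with -1.13 ± 0.08 for EGF and -1.46 ± 0.08 for OSM. SRXN1, which repairs over-oxidised peroxiredoxins, was higher with EGF (0.296 ± 0.06) and lower with OSM (-0.31 ± 0.06) and TGFB (-0.33 ± 0.06); 9.37% of the 31-base words in its transcripts occur in no other gene of the annotation.

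**Figure D3:**
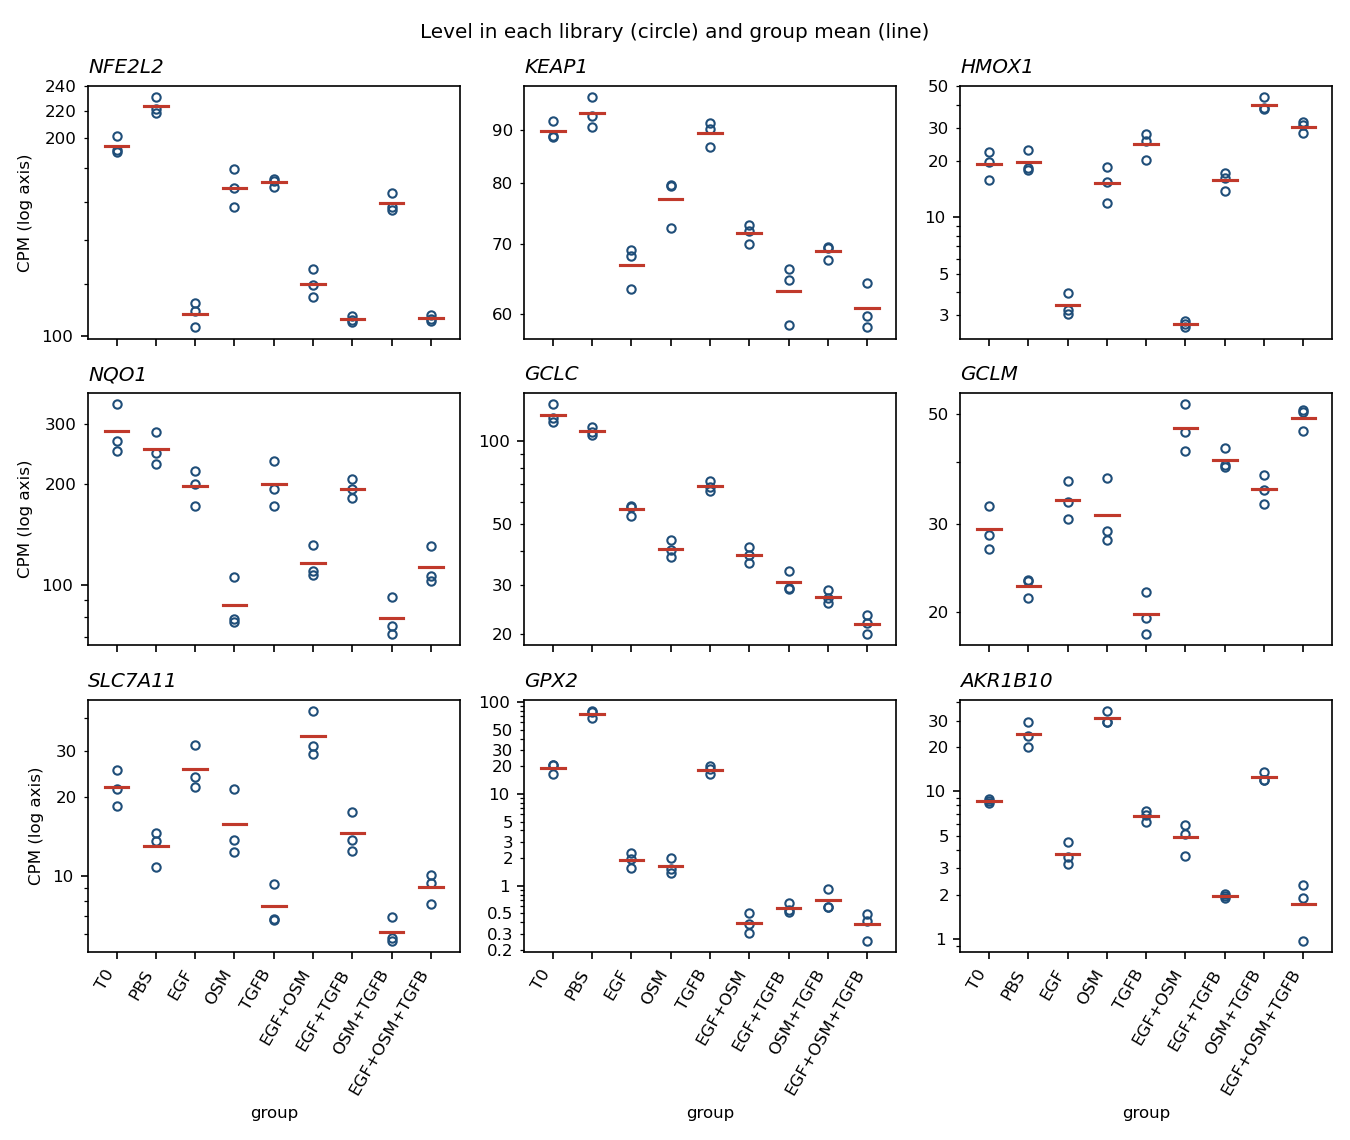
CPM (log axis) of 9 of the 37 genes in each of the 27 libraries (circles), by group, with the group mean as a line. NFE2L2 is lowest in the 4 groups with EGF, GCLC falls and GCLM rises in EGF and OSM, and HMOX1 is high in OSM+TGFB and EGF+OSM+TGFB and low in EGF and EGF+OSM.

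In the group that supplies NADPH, TKT, transketolase of the pentose phosphate pathway, fell. Its level was 1148, 1253 and 1399 CPM at T0, 1031, 1059 and 1172 with PBS, 508, 535 and 545 with EGF, 529, 576 and 566 with OSM and 673, 735 and 801 with TGFB, then 505, 461 and 525 with EGF+OSM, 382, 402 and 432 with EGF+TGFB, 352, 379 and 409.6 with OSM+TGFB and 381, 389 and 431 with EGF+OSM+TGFB. No ligand library overlapped a PBS library, and the log2 difference from PBS was -1.04 ± 0.08 with EGF, -0.96 ± 0.08 with OSM and -0.56 ± 0.08 with TGFB. ME1, malic enzyme, was at 43.6, 51.3 and 54.1 CPM at T0, 34.3, 35.1 and 38.96 with PBS, 36.5, 40.3 and 44.8 with EGF, 24.9, 27.02 and 33.3 with OSM and 35.5, 37.1 and 46.4 with TGFB, and at 38.2, 40.2 and 43.2 with EGF+OSM, 56.5, 56.5 and 58.7 with EGF+TGFB, 34.5, 33.2 and 37.1 with OSM+TGFB and 57.6, 54.8 and 60.6 with EGF+OSM+TGFB. It was raised by 0.66 ± 0.102 with EGF+TGFB (3.0e-06) and 0.68 ± 0.102 with all 3 ligands, while EGF alone gave 0.17 ± 0.102 (adjusted p 0.15, not called) and TGFB 0.14 ± 0.103 (0.33, not called). PGD and TALDO1, of the same pathway as TKT, were called lower with TGFB, by log2 differences of -0.43 ± 0.11 and -0.24 ± 0.07. The TALDO1 call was lost without PBS replicate 3 or TGFB replicate 1.

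Of the heme and iron genes, HMOX1 (chr22:35380361-35394214, plus strand), heme oxygenase 1, had the widest range over the groups. It was at 15.8, 19.8 and 22.5 CPM at T0, 17.8, 18.3 and 22.9 with PBS, 3.205, 3.93 and 3.07 with EGF, 15.4, 18.7 and 11.9 with OSM and 20.2, 25.5 and 27.9 with TGFB. It was at 2.600, 2.82 and 2.71 with EGF+OSM, 13.9, 17.3 and 16.2 with EGF+TGFB, 37.9, 43.7 and 38.6 with OSM+TGFB and 28.1, 32.2 and 31.2 with EGF+OSM+TGFB. The EGF and EGF+OSM libraries were the lowest, and the OSM+TGFB and EGF+OSM+TGFB libraries were all above those of every other group. The log2 difference from PBS was -2.52 ± 0.17 with EGF (3.9e-12), 0.32 ± 0.15 with TGFB (adjusted p 0.092, not called) and -0.36 ± 0.15 with OSM (0.04), a call that was lost without OSM replicate 1, OSM replicate 3 or PBS replicate 3, among other settings. FTH1, the ferritin heavy chain that stores iron, was at 5888, 6532 and 7685 CPM at T0, 5524, 5979.6 and 6205 with PBS, 1657, 1873 and 1905 with EGF, 4500.4, 5047 and 3915 with OSM and 4651, 4635 and 5206 with TGFB, and at 1408, 1479.9 and 1289.6 with EGF+OSM, 1366, 1534 and 1511 with EGF+TGFB, 4988, 5095 and 4209 with OSM+TGFB and 1450.2, 1666 and 1315 with EGF+OSM+TGFB. The groups with EGF lay below all others. Its log2 difference from PBS was -1.704 ± 0.11 for EGF, -0.395 ± 0.104 for OSM and -0.29 ± 0.104 for TGFB (0.032), the last lost without any of PBS replicates 2 and 3 and TGFB replicates 1 and 2. FTL, the light chain, fell with EGF (-1.58 ± 0.12) and OSM (-0.49 ± 0.11). Of the 31-base words of FTH1, 43.8% occur in no other gene of the annotation and 44.9% also in BEST1.

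Of the 9 genes of carbonyl and quinone reduction, 7 fell with EGF (38.6% of all genes), 7 with OSM (29.8%) and 5 with TGFB (15.8%). None rose with EGF, 1 rose with OSM (33.5% of all genes) and 2 with TGFB (19.9%). ALDH3A1, an aldehyde dehydrogenase of epithelia, was at 654, 678 and 833 CPM at T0 and 519, 518 and 698 with PBS, against 60.2, 62.6 and 70.5 with EGF, 66.8, 72.2 and 74.97 with OSM and 137, 149 and 215 with TGFB. It was at 23.8, 21.4 and 28.8 with EGF+OSM, 24.5, 26.1 and 38.2 with EGF+TGFB, 33.5, 37.98 and 43.3 with OSM+TGFB and 12.2, 13.7 and 18.6 with EGF+OSM+TGFB, each group below the PBS libraries. The log2 difference from PBS was -3.17 ± 0.199 with EGF, -3.02 ± 0.198 with OSM and -5.29 ± 0.23 with all 3 (1.4e-14). AKR1C2, an aldo-keto reductase of steroids and carbonyls, was at 451, 460.4 and 682 CPM at T0, 383, 380.3 and 514 with PBS, 65.03, 75.2 and 90.1 with EGF, 155, 174 and 148 with OSM and 739, 779 and 909 with TGFB. The pairs were at 22.6, 21.6 and 29.1 for EGF+OSM, 76.3, 76.02 and 82.1 for EGF+TGFB and 224, 211 and 184 for OSM+TGFB, and EGF+OSM+TGFB at 42.6, 43.8 and 39.8. It fell with EGF (-2.47 ± 0.16) and OSM (-1.42 ± 0.16) and rose with TGFB (0.93 ± 0.15, adjusted p 6.2e-05). The near-copy AKR1C1 fell with TGFB (-1.42 ± 0.18, 1.9e-06), from 279, 333 and 352 to 92.8, 124 and 144 CPM; 46.7% of the 31-base words of AKR1C2 also occur in AKR1C1, so how reads were split between the pair is uncertain. Summed over both genes, which does not depend on that split, the level was 747 ± 106 CPM (SD, n = 3) with PBS, 111 ± 20.8 with EGF, 216 ± 21.1 with OSM, 929.8 ± 113 with TGFB and 42.8 ± 6.61 with EGF+OSM. AKR1C3, of the same cluster, fell with EGF (-2.39 ± 0.11) and OSM (-0.79 ± 0.1003) and was called higher with TGFB (0.32 ± 0.099), a call lost without PBS replicate 1, PBS replicate 2 or TGFB replicate 3. EPHX1, an epoxide hydrolase that acts beside these enzymes, fell with EGF (-1.73 ± 0.08), OSM (-1.58 ± 0.08) and TGFB (-0.42 ± 0.08). CBR1, a carbonyl reductase, fell with OSM (-0.605 ± 0.07) and OSM+TGFB (-0.72 ± 0.07).

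NQO1 and AKR1B10, chosen for description after their values were seen (as were GCLM, GPX3 and AKR1C1), separated OSM from EGF. NQO1, which reduces quinones, was at 228, 246 and 284 CPM with PBS, 172, 199 and 219 with EGF, 77.8, 78.9 and 105 with OSM and 171, 193 and 234 with TGFB; the OSM libraries were below all of the EGF libraries. NQO1 fell with OSM (-1.53 ± 0.15), and OSM against EGF gave -1.17 ± 0.15 (1.6e-06). Its fall with EGF (-0.36 ± 0.15, 0.036) was lost without EGF replicate 1, EGF replicate 2, PBS replicate 2 or PBS replicate 3. AKR1B10, an aldose reductase relative, was at 23.6, 20.00 and 29.2 CPM with PBS, 3.205, 4.51 and 3.56 with EGF, 29.6, 34.7 and 29.1 with OSM and 6.86, 6.17 and 7.37 with TGFB, with OSM against EGF at 3.05 ± 0.18 (6.3e-13); its small rise with OSM over PBS (0.36 ± 0.15, 0.046) was lost with DESeq2, with other scalings and without any of OSM replicates 1 and 2 and PBS replicates 1 and 2. NQO1 lies at chr16:69706996-69726668 on the minus strand and AKR1B10 at chr7:134527567-134541412 on the plus strand.

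Of the 7 conjugating and exporting genes, UGT1A7 included, 6 were lower with EGF (38.6% of all genes), 6 with OSM (29.8%) and 5 with TGFB (15.8%), and 1, ABCC3, was higher with each. UGT1A6, a glucuronosyltransferase, was at 15.7, 14.95 and 14.7 CPM at T0, 12.01, 12.7 and 16.3 with PBS, 1.36, 1.24 and 1.805 with EGF, 0.968, 1.38 and 1.24 with OSM and 6.29, 6.39 and 10.05 with TGFB, and at 0.135, 0.209 and 0.126 with EGF+OSM, 0.742, 0.506 and 0.411 with EGF+TGFB and 1.21, 1.21 and 0.987 with OSM+TGFB. In EGF+OSM+TGFB no library held more than 2 counts, so no fold change is given there. All EGF and OSM libraries were below all TGFB libraries, and the log2 difference was -3.23 ± 0.198 with EGF, -3.501 ± 0.21 with OSM and -0.85 ± 0.17 with TGFB; 22.8% of its 31-base words are its own, since genes of the UGT1A locus share their last exons. UGT1A7, given without a test, was at 3.11, 3.93 and 8.58 CPM at T0, 7.85, 9.49 and 14.5 with PBS, 0, 0.838 and 0.488 with EGF, 0.455, 0.621 and 0.594 with OSM and 0.626, 1.39 and 1.91 with TGFB, and in the combinations at 0.0812, 0 and 0.152 with EGF+OSM, 0, 0 and 0.171 with EGF+TGFB, 0, 0.0287 and 0.523 with OSM+TGFB and 0.0489, 0.0697 and 0.0313 with EGF+OSM+TGFB; every PBS library was above every ligand library. GSTA4, a glutathione transferase for lipid aldehydes, fell with EGF (-2.89 ± 0.14) and OSM (-0.72 ± 0.12), and was higher with OSM than with EGF (2.17 ± 0.14). GSTP1 and MGST1, further glutathione transferases, fell with EGF by log2 differences of -0.31 ± 0.06 and -0.82 ± 0.06. ABCC2, an exporter of conjugates, fell with EGF (-2.83 ± 0.14), OSM (-1.26 ± 0.13) and TGFB (-1.65 ± 0.13).

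ABCC3, an exporter of conjugated bile salts and other anions, rose with each ligand. It was at 94.9, 98.8 and 122 CPM at T0, 43.3, 39.8 and 49.2 with PBS, 149, 146 and 143 with EGF, 88.1, 82.4 and 96.1 with OSM and 98.5, 96.1 and 104 with TGFB, and at 74.8, 67.7 and 68.4 with EGF+OSM, 199, 190.3 and 193 with EGF+TGFB, 131, 132 and 145 with OSM+TGFB and 102, 101 and 107 with EGF+OSM+TGFB. EGF+OSM lay below both single ligands. The log2 difference from PBS was 1.73 ± 0.08 with EGF (1.1e-15), 1.01 ± 0.08 with OSM, 1.17 ± 0.08 with TGFB and 0.67 ± 0.08 with EGF+OSM. OSGIN1, a growth inhibitor known as an NRF2 target, was at 4.39, 4.95 and 5.36 CPM at T0, 5.25, 5.005 and 6.599 with PBS, 4.01, 4.17 and 3.78 with EGF, 3.02, 3.44 and 2.94 with OSM, 2.48, 2.83 and 3.22 with TGFB, 4.58, 3.54 and 3.06 with EGF+OSM, 5.17, 5.61 and 4.35 with EGF+TGFB, 2.02, 1.87 and 2.73 with OSM+TGFB and 4.87, 5.37 and 5.33 with EGF+OSM+TGFB. It fell with EGF (-0.49 ± 0.15, a call lost without PBS replicate 3), OSM (-0.84 ± 0.16) and TGFB (-0.98 ± 0.16).

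TGFB was also added to each background. Added to EGF it lowered 18 (27.7% of all genes) and raised 6 (27%) of the 37 genes, added to OSM 19 (25.6%) and 6 (26.1%), and added to EGF+OSM 16 (29.5%) and 9 (31.6%). HMOX1 rose by 2.21 ± 0.17 over EGF (2.4e-10), 1.38 ± 0.15 over OSM (4.2e-08) and 3.49 ± 0.18 over EGF+OSM (1.0e-13), against 0.32 ± 0.15 over PBS. Between OSM and EGF, 12 genes were higher (28% of all genes) and 9 lower (28.8%) with OSM.

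**Figure D4:**
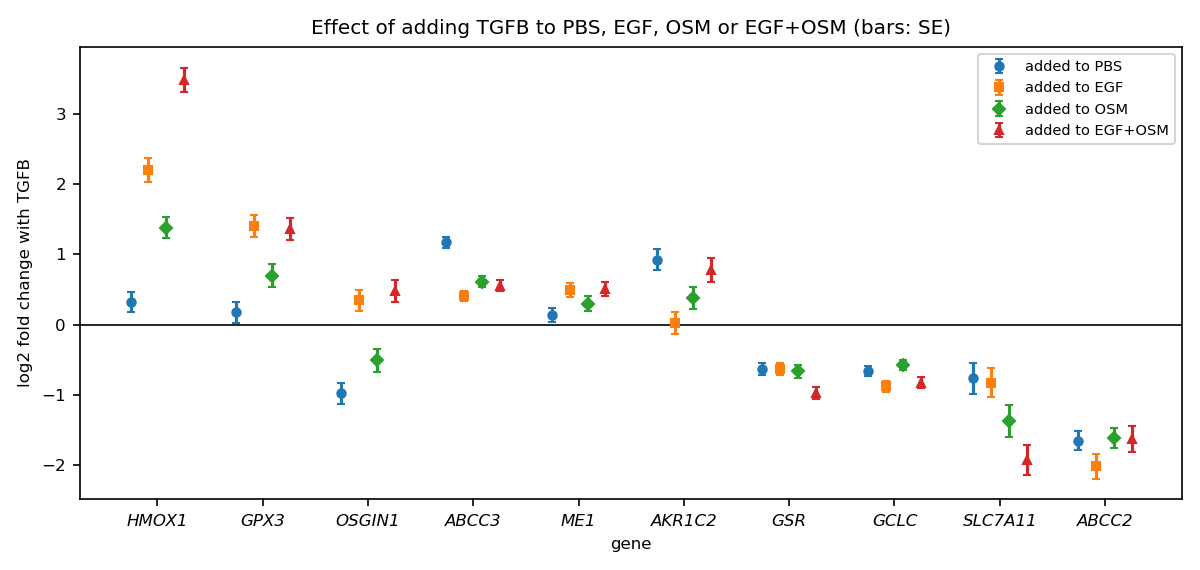
Log2 fold change on adding TGFB to PBS, EGF, OSM and EGF+OSM for 10 of the 37 genes (points, with bars for the standard error). HMOX1 is at 2.21 over EGF and 3.49 over EGF+OSM, and SLC7A11 at -1.93 over EGF+OSM.

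From T0 to PBS, a further 24 h without growth factors, 6 of the 37 genes rose (16.2% of all genes) and 10 fell (18.9%), with a median log2 difference of -0.07 (-0.01 for all tested genes). NFE2L2 rose by 0.199 ± 0.05 (adjusted p 0.0015) and AKR1B10 by 1.497 ± 0.16, while ABCC3 fell (-1.25 ± 0.08). GPX2 went from 16.3, 20.6 and 20.5 to 67.7, 77.8 and 79.5 CPM, with no overlap between the groups.

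A departure is what remains of a combination's log2 difference from PBS once those of its single ligands are subtracted; all of them share the PBS libraries. Of the 37 genes 20 departed for EGF+OSM (38.7% of all genes), 11 for EGF+TGFB (29.8%), 7 for OSM+TGFB (23.3%) and, with all 3, 21 (48%). A departure opposite in sign to the sum made up 20 of 20 for EGF+OSM (95% among all genes that departed), 7 of 11 for EGF+TGFB (73.7%), 6 of 7 for OSM+TGFB (79.1%) and, with all 3, 20 of 21 (93.3%). In 18, 6, 5 and 17 of these, in the same order, the combination lay between PBS and the sum, and in the other 2, 1, 1 and 3 it lay on the far side of PBS from the sum. This split was not counted over all genes that departed, so it is a description only. HMOX1 with OSM+TGFB lay on the far side of PBS. Its sum was only -0.036, and the sums of SRXN1 (-0.017) and AKR1B1 (0.186) with EGF+OSM and of ME1 with all 3 (-0.045) were small too. For these the sign of the sum says little. The sums were larger for GPX3 (-0.38 with EGF+TGFB, -0.92 with all 3) and for HMOX1 with all 3 (-2.56). The count for OSM+TGFB rested on single libraries: it was 4 without TGFB replicate 1, and without PBS replicate 3 it turned from 5 upward and 2 downward departures to 2 upward and 4 downward.

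**Figure D5:**
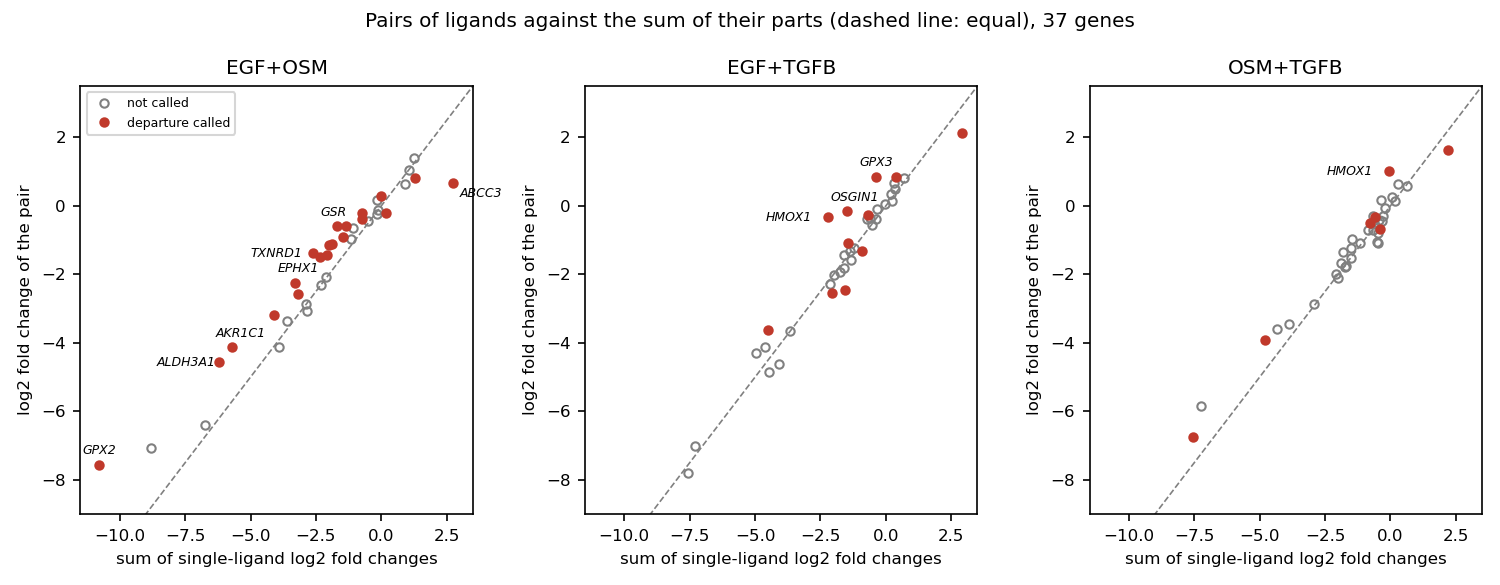
Log2 fold change of each pair of ligands against the sum of its single-ligand log2 fold changes, all against PBS, for the 37 genes. Filled points were called as departures and the dashed line marks equality. GPX2 is filled for EGF+OSM and OSM+TGFB but is a description with no test. For EGF+OSM, ABCC3 lies below the line and ALDH3A1, AKR1C1 and EPHX1 lie above it.

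For EGF+OSM, ABCC3 departed downward (-2.07 ± 0.11, adjusted p 3.0e-13), as the pair was closer to PBS than either ligand alone. ALDH3A1 departed upward for the same pair (1.63 ± 0.27, 6.3e-05), as its fall with both ligands was less than the sum. HMOX1 departed upward with TGFB in each combination: EGF+TGFB by 1.89 ± 0.22 (1.8e-06), OSM+TGFB by 1.06 ± 0.21 (0.00059) and EGF+OSM+TGFB by 3.19 ± 0.2996 (9.4e-09). For OSM+TGFB the pair was above either ligand alone, with OSM+TGFB libraries all above PBS libraries. AKR1C2 departed downward for EGF+TGFB (-0.902 ± 0.22, 0.0039), and its EGF+TGFB libraries lay within the range of its EGF libraries. The departure draws on the rise of AKR1C2 with TGFB, and the split of its reads with AKR1C1 is uncertain. Summed over both genes, the TGFB libraries (832 to 1053 CPM) overlapped those of PBS (662 to 866 CPM), and a departure of the sum was not tested.

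A list of 65 further antioxidant genes, chosen with earlier results known, was read for comparison; 61 passed the filter, and SOD3, SLC40A1, ALDH1A1 and UGT1A10 did not. EGF raised 21 (34.9% of all genes) and lowered 33 (38.6%) of them, OSM 22 (33.5%) and 27 (29.8%), and TGFB 11 (19.9%) and 20 (15.8%), with median log2 differences of -0.29, -0.06 and -0.104. The largest called changes of each ligand that are reported here were as follows. SOD2, mitochondrial superoxide dismutase, fell with EGF from 931 to 137 CPM (-2.76 ± 0.21), and ABCG2, a drug exporter, rose from 0.116 to 0.892 (2.89 ± 0.45). ALDH1A3, which makes retinoic acid, fell with OSM from 634 to 37.7 (-4.07 ± 0.11), and GGT1, which cleaves extracellular glutathione, from 1.19 to 0.146 (-2.96 ± 0.56). With TGFB, GLRX, a glutaredoxin, fell from 32.6 to 20.00 (-0.705 ± 0.101).

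The aryl hydrocarbon receptor pathway, whose targets overlap those of NRF2 in detoxification, was read from 6 genes that all passed the filter. EGF lowered 5 (38.6% of all genes) and raised 1 (34.9%), OSM lowered 4 (29.8%), and TGFB raised 1 (19.9%). AHR, the receptor, fell from 86.3 to 38.3 CPM with EGF and 32.1 with OSM, and its classical target CYP1A1 from 18.3 to 2.41 with EGF and 0.873 with OSM (-4.39 ± 0.22). CYP1B1, a further target, went from 133 to 23.4 with EGF and 69.4 with OSM. The repressor AHRR was called lower with EGF (-2.28 ± 0.81, adjusted p 0.016) and OSM (-2.28 ± 0.83, 0.021). Its level was low throughout, at 1.099 CPM with PBS, 0.225 with EGF and 0.221 with OSM, and the libraries of each ligand overlapped those of PBS. ARNT, the partner of AHR, fell with EGF (-0.68 ± 0.05) and was not called with OSM (-0.07 ± 0.05), and TIPARP, a target that restrains AHR, rose with EGF (0.31 ± 0.08) and TGFB (0.24 ± 0.08).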

How the data were processed

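The deposited table held 40487 rows and 27 library columns of estimated counts, which were whole numbers; the submitters' processing notes name kallisto 0.46.2, Trim Galore 0.4.3, cutadapt 1.10, FastQC 0.11.5, R 3.5.0 and the builds GRCh38.p5 and hg38, while the annotation version and any rounding are not given in the sources used here. The deposited estimated counts were rounded before the fit, which changed no value, and rows sharing a symbol were summed.

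Groups came from the sample titles. The counts were fitted in R 4.3.3 with edgeR 4.0.16 (robust quasi-likelihood fit, 9 group means, 18 residual degrees of freedom, TMM factors 0.867 to 1.12, edgeR's low-count filter, 15575 genes, Benjamini-Hochberg adjustment over all of them, threshold 0.05, two-sided); DESeq2 1.42.0, other scalings, no filter and leaving out libraries were alternatives. Standard errors were taken as the absolute log2 fold change over the square root of F. Replicates differed beyond sampling noise (chi-square per degree of freedom 6.87 to 34.1 over 27 pairs), so each was counted. The scripts were tested on simulated data.

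The members, lists and tests were chosen with earlier results of these data known. Values in every library are given for the regulators, OSGIN1, the 2 members of each role with the widest range, the member with the largest departure in each combination and those with the largest change in each direction for each ligand. Library values of GCLM, GPX3, AKR1C1, NQO1 and AKR1B10 are given outside this rule. GPX2 and UGT1A7 are given without p but are included in counts. Gene positions are GENCODE v44 on GRCh38. Shared 31-base words were counted over its transcripts on both strands. Promoters of SLC7A11, GSR, PRDX1, HMOX1, FTH1, AKR1B10, ALDH3A1 and ABCC3 were not analysed here. A marker and a gene of the comparison list that the naming rule would give are not reported here.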

Additional observations from a re-analysis of the deposited data

Results flagged for a closer look

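For pairs of ligands, edgeR's fit called 38 departures from the sum of the single-ligand log2 differences, in which the effect of a ligand differed with the presence of another. The 15 given here are those of at least 1 on the log2 scale and those of the regulators NFE2L2 and KEAP1; 14 are tested, and GPX2 is a description. All groups hold 3 libraries, so no library was tested as an outlier.

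For EGF+OSM the departure was 0.56 for NFE2L2, 0.37 for KEAP1, 1.11 for GSR, 1.22 for TXNRD1, 1.57 for AKR1C1, 1.63 for ALDH3A1 and 1.06 for EPHX1. Each of these 7 genes was lower with either ligand alone, and the pair lay above the sum. Of the 31-base words of AKR1C1, 26.8% also occur in AKR1C2, so the split of its reads is uncertain. AKR1C2 had no called departure for EGF+OSM. GPX2 had a fitted departure of 3.22 (a description, with no test), with fewer than 1 CPM in each EGF+OSM library. ABCC3 departed the other way, by -2.07, from a rise with either ligand. The 6 proliferation genes, which rose with each ligand and with the pair, had a median departure of -3.00 for EGF+OSM; their part in these departures was not tested.

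For EGF+TGFB the departure was 0.35 for NFE2L2, 1.24 for GPX3, 1.89 for HMOX1 and 1.33 for OSGIN1. OSGIN1 was lower than PBS with EGF and with TGFB, while its EGF+TGFB libraries overlapped those of PBS. For OSM+TGFB it was 0.30 for NFE2L2 and 1.06 for HMOX1.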

How the results depend on the processing

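Of 395 calls of single genes, 394 kept their call with DESeq2, 393 with RLE size factors, 389 with upper-quartile scaling, 378 with no low-count filter and 394 with rows as deposited, and 385 of 393 did so in fits of the compared groups alone; none of these settings turned a direction. No scaling moved the median of all genes by more than 0.1 on the log2 scale. The added limit of a log2 value of at least 1 left 19 (EGF), 14 (OSM), 7 (TGFB), 21 (EGF+OSM), 21 (EGF+TGFB) and 19 (OSM+TGFB) genes called against PBS, 3 for PBS against T0, 9 for OSM against EGF, 7, 5 and 6 for TGFB added to EGF, OSM and EGF+OSM, and, for the departures of EGF+OSM, EGF+TGFB, OSM+TGFB and EGF+OSM+TGFB, 7, 3, 1 and 9, by construction of the limit. Counts over fits that left out 1 library ran from 31 to 33 (EGF), 31 to 32 (OSM), 23 to 25 (TGFB), 32 to 36 (EGF+OSM), 30 to 33 (EGF+TGFB), 32 to 34 (OSM+TGFB) and 33 to 35 (all 3 ligands) against PBS, 13 to 18 for PBS against T0 and 21 to 24 for OSM against EGF. For TGFB added to EGF, OSM and EGF+OSM they ran from 21 to 23, 21 to 25 and 23 to 27, and for the departures, in the order above, from 19 to 21, 10 to 12, 4 to 8 and 19 to 24.

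The labels give the same replicate numbers to all groups without saying what they share. Same-numbered libraries of different groups had correlated deviations from their group means, with a mean correlation of 0.0626 over 108 pairs (-0.0265 to 0.178, 23 of them over 0.1). For libraries with different numbers the mean was -0.0313 over 216 pairs. Of the 27 libraries, 26 correlated best with their own number. This points to something shared by number, which comes from the data and not from the stated design. With the replicate block all 395 calls were kept, and departures were called for 19 genes with EGF+TGFB (14 upward and 5 downward, from 7 and 4) and for 13 with OSM+TGFB. The share of all tested genes that departed with the block was not counted. The shares given for the main fit do not apply to these 2 counts. Depth limits UGT1A6, UGT1A7 and GPX2, whose levels in several combinations rest on few counts.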
